A study of Rattus norvegicus with 12 samples.

Results

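Matrix metalloproteinases are zinc enzymes that cut the proteins of the extracellular matrix and of the cell surface, and the tissue inhibitors of metalloproteinases (TIMPs) bind to their active site and block them. Some metalloproteinases are secreted, while the membrane-type enzymes stay anchored in the plasma membrane. In the early yolk sac these enzymes and inhibitors meet in the basement membrane that parietal endoderm lays down. The genes examined were the gelatinases Mmp2 and Mmp9, the membrane-type enzymes Mmp14 and Mmp15, the inhibitors Timp1, Timp2 and Timp3, and Adamts1, a secreted metalloproteinase that carries thrombospondin motifs and cuts proteoglycans. They were found by the gene symbol of their probe sets, which gave 8 of the 16582 genes measured and 83 of the 172924 probe sets with 1 symbol. On the rat assembly GRCr8, Mmp2 and Mmp15 lie on chromosome 19, Mmp9 on 3, Mmp14 on 15, Timp1 on X, Timp2 on 10, Timp3 on 7 and Adamts1 on 11.

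The cells were a rat extraembryonic endoderm (XEN) line of the Fisher strain, which carries features of the early yolk sac endoderm, and RNA of 12 samples was hybridised to Affymetrix arrays that hold separate probe sets for the exons of a gene. One group of 3 received both compounds, with 3 µM CHIR99021 (CHIR), an inhibitor of the kinase GSK3 that activates Wnt/beta-catenin signalling, for 2 days and 10 µM forskolin, an activator of adenylate cyclase that raises cAMP, over the last 1 day. The CHIR group of 3 received 3 µM CHIR for 2 days, the forskolin group of 3 received 10 µM forskolin for 1 day, and the control group of 3 received neither compound. All 4 groups were kept in 10% serum before the last day and in 0.1% serum on it, so every comparison was made in cells moved to low serum. The series asks how adenylate cyclase and Wnt/beta-catenin signalling move XEN cells towards parietal or visceral endoderm. The 3 parallels of a group are not stated to be separate cultures, and the spread behind each p-value is that of these samples alone and may be technical. XEN cells are a single cell line here, and fewer cells expressing a gene cannot be told apart from less RNA per cell.

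Values are log2 signals, each gene taken as the median of its probe sets, so a difference of 1 is a doubling. Array medians lay between 7.76 and 7.86, and any pair of arrays correlated at 0.985 to 0.991 when they shared a group and at 0.957 to 0.984 when they did not. As a reference for background, 57 olfactory receptor genes had a 95th percentile of 6.58, and 10081 genes lay above it in at least 1 group. Of the 9 markers fixed for extraembryonic endoderm, 9 lay above it in every group, with a mean level per array of 12.16 to 12.25 with CHIR plus forskolin, 12.01 to 12.07 with CHIR, 12.38 to 12.42 with forskolin and 12.27 to 12.33 in control cells. With CHIR 1 of the 9 was higher and 5 were lower than in control cells past the threshold, where 28.2% of all genes passed. Dab2 averaged 11.81 with CHIR and 12.87 in control cells, and Pdgfra averaged 12.65 and 12.34. With forskolin alone 1 was higher and 0 were lower, where 15.0% of all genes passed. Of 8 macrophage markers 1 (Cd68) lay above background, and of 8 fibroblast markers 1 (Col1a1). Single markers of other cell types also had different levels in the groups. The trophoblast factor Cdx2 averaged 7.47 ± 0.44 with CHIR plus forskolin, 7.65 ± 0.27 with CHIR, 5.56 ± 0.04 with forskolin and 5.49 ± 0.02 in control cells (mean ± SD, n = 3 arrays each), and 1 of the 5 measured trophoblast markers lay above background in each group that had CHIR. The pluripotency factor Pou5f1 averaged 6.83 ± 0.24 with CHIR plus forskolin, 6.71 ± 0.31 with CHIR, 8.56 ± 0.10 with forskolin and 8.17 ± 0.34 in control cells. The endothelial receptor kinase Tek averaged 7.27 ± 0.10 with CHIR plus forskolin, 6.11 ± 0.33 with CHIR, 7.91 ± 0.07 with forskolin and 8.54 ± 0.08 in control cells. The 5 measured trophoblast markers averaged 6.14 to 6.30 per array with CHIR plus forskolin, 6.09 to 6.18 with CHIR, 5.90 to 6.00 with forskolin and 5.78 to 5.92 in control cells. Cdx2 was the 1 of them that was higher with CHIR past the threshold, while Tfap2c averaged 5.33 with CHIR and 5.93 in control cells and Elf5 averaged 5.67 with CHIR and 5.91 in control cells. The 4 measured endothelial markers averaged 6.26 to 6.35 with CHIR plus forskolin, 5.93 to 6.14 with CHIR, 6.50 to 6.67 with forskolin and 6.78 to 6.89 in control cells. The 4 measured pluripotency markers averaged 6.03 to 6.06 with CHIR plus forskolin, 5.97 to 6.25 with CHIR, 6.39 to 6.50 with forskolin and 6.24 to 6.41 in control cells. Of these, Pou5f1 was lower with CHIR than in control cells past the threshold, while Nanog, Sox2 and Esrrb, all below background, averaged 5.57, 6.31 and 5.89 with CHIR, against 5.37, 6.22 and 5.59 in control cells. The part of these markers in the results below was not tested.

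CHIR changed most of the 8 genes, and it changed enzymes and inhibitors in both directions. Against control cells, 6 of the 8 passed the test (limma, adjusted p under 0.05 over all 16582 genes), where 28.2% of all genes did. Mmp9, Mmp15 and Timp3 rose, with 14.3% of all genes higher, and Mmp14, Timp1 and Timp2 fell, with 13.9% of all genes lower. The gene value of Mmp9 lay below background in every group. Forskolin alone lowered 3 of the 8, Mmp15, Timp3 and Adamts1, where 15.0% of all genes passed, 6.08% higher and 8.96% lower. With both compounds against control, 5 of the 8 passed, where 29.0% of all genes did. Mmp15 and Timp3 were higher, against 14.3% of all genes, and Mmp14, Timp2 and Adamts1 were lower, against 14.7% of all genes. These 3 comparisons share the control arrays. The 8 genes were chosen with earlier results of these data known, so their counts are a description. The shares of all genes take in genes that stayed below background in every group. All 12 array values of each gene are shown in the plot of signals by array, and the differences from control in the plot of the 3 treatments.

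**Figure D1:**
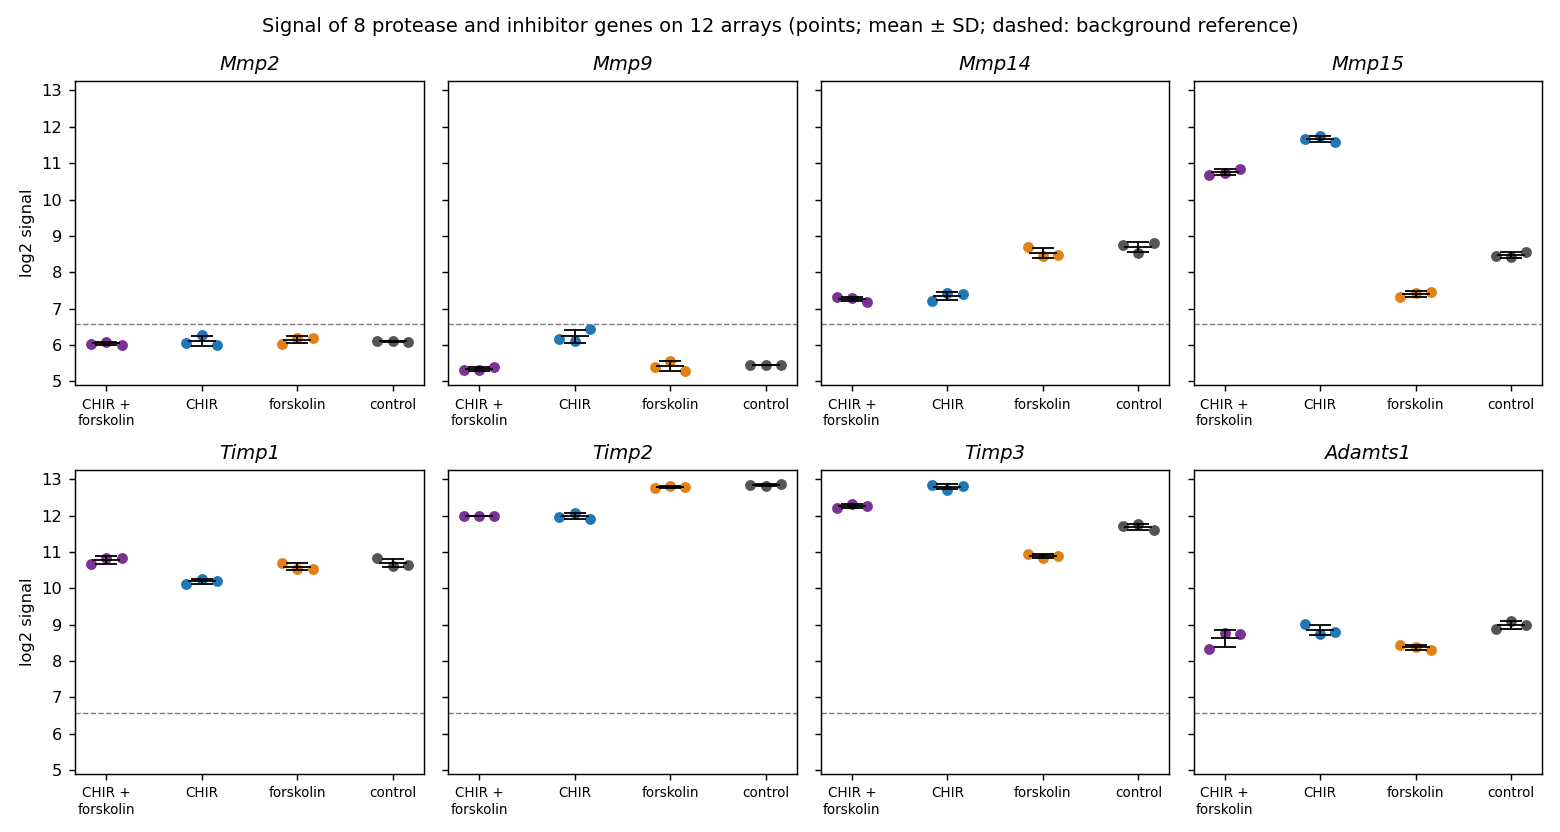
Log2 signal of the 8 genes on each of the 12 arrays (points), with the mean and SD of the 3 arrays of each group (CHIR plus forskolin, CHIR, forskolin, control from left to right) and the background reference of 6.58 as a dashed line. Mmp15 spans 7.32 to 11.74 log2 units over the 12 arrays with no overlap between the 4 groups, and all arrays of Mmp2 and Mmp9 lie below the dashed line.

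**Figure D2:**
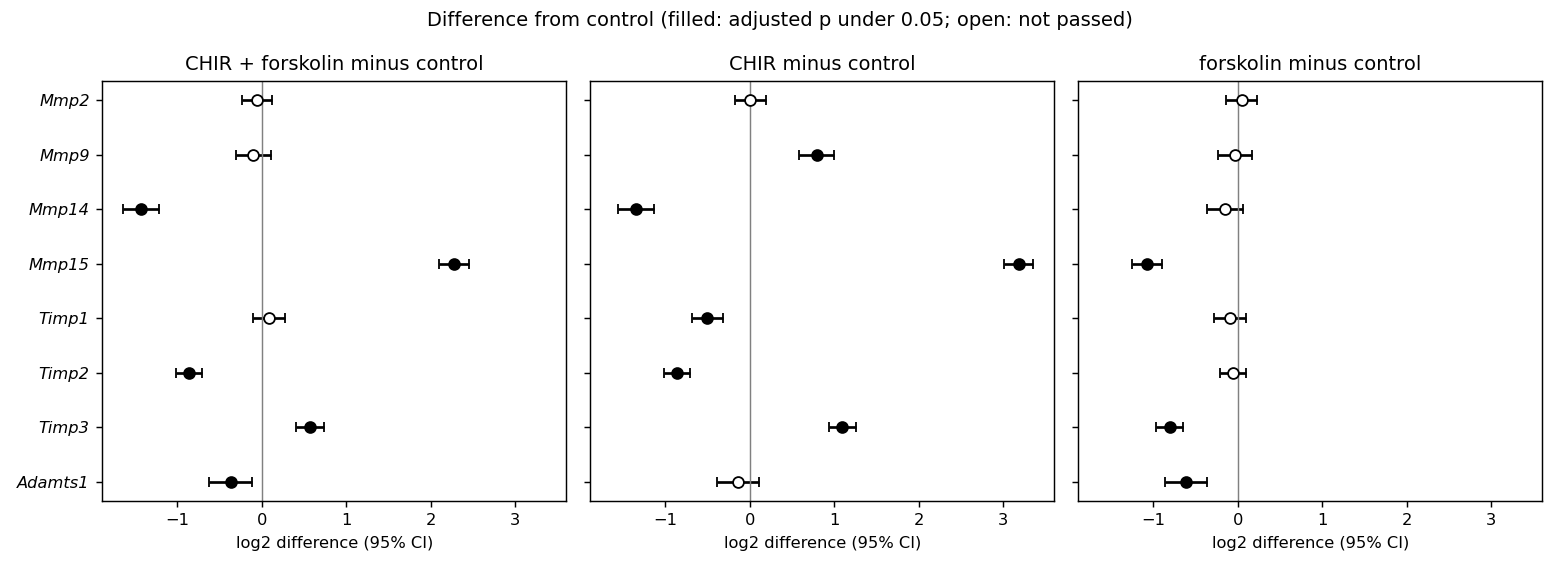
Log2 difference from control for CHIR plus forskolin, CHIR and forskolin (panels), with 95% confidence intervals; filled points passed an adjusted p under 0.05 and open points did not. With CHIR alone Mmp15 stands at 3.18 and Mmp14 at -1.34, and with forskolin alone Mmp15 stands at -1.08.

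Mmp15 encodes a membrane-anchored metalloproteinase, and it had the largest differences of the 8 genes in 6 of the 7 comparisons made. Its log2 signal was 10.68, 10.73 and 10.85 with CHIR plus forskolin, 11.66, 11.74 and 11.58 with CHIR, 7.32, 7.43 and 7.47 with forskolin, and 8.44, 8.43 and 8.57 in control cells. The groups did not overlap, and they ran in the order CHIR, CHIR plus forskolin, control, forskolin. CHIR raised it 9.07-fold over control (log2 difference 3.18, SE 0.0811, adjusted p = 8.2e-12), and forskolin lowered it 2.11-fold below control (-1.08, SE 0.0811, adjusted p = 6.7e-07). In cells with both compounds it was 4.83-fold higher than in control cells (2.27, adjusted p = 1.75e-10) and 10.2-fold higher than with forskolin alone (3.35, adjusted p = 6.87e-12). Between the single compounds, the CHIR level was 19.1-fold that with forskolin (4.26, adjusted p = 2.04e-13). All 10 probe sets of Mmp15 rose with CHIR, by 2.93 to 3.99, among them the 7 that were above background in every group, where 18.7% of all single probe sets passed. With forskolin all 10 lay below their control value and 7 passed, where 7.35% of all single probe sets did. Probe sets of 1 gene share its RNA and its arrays and are not replicates.

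Mmp14 encodes the best studied membrane-type metalloproteinase, which cuts collagens and activates the pro-form of Mmp2 at the cell surface. Its log2 signal was 7.32, 7.29 and 7.20 with CHIR plus forskolin, 7.22, 7.43 and 7.40 with CHIR, 8.70, 8.44 and 8.47 with forskolin, and 8.75, 8.53 and 8.80 in control cells. Every array with CHIR lay below every array without it, and within each of those sets the arrays with and without forskolin overlapped. CHIR lowered Mmp14 2.54-fold below control (-1.34, SE 0.0989, adjusted p = 1.39e-07), and all 12 of its probe sets fell, with differences of -0.66 or further below 0. With both compounds the difference from control was -1.43 (adjusted p = 9.02e-08), and from forskolin alone -1.27 (adjusted p = 3.1e-07). Forskolin made a difference of -0.15 from control, with a 95% interval of -0.37 to 0.06 (adjusted p = 0.373), and of -0.08 in the presence of CHIR, with an interval of -0.30 to 0.13 (adjusted p = 0.698). The 2 membrane-type genes thus differed from control in opposite directions with CHIR.

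Mmp2 and Mmp9 encode the gelatinases, secreted enzymes that cut denatured collagen and collagen of basement membranes, and both were dim on these arrays. The gene value of Mmp2 was 6.04, 6.09 and 6.00 with CHIR plus forskolin, 6.06, 6.27 and 6.00 with CHIR, 6.04, 6.21 and 6.20 with forskolin, and 6.11, 6.11 and 6.09 in control cells. All 4 groups overlapped below the background reference, and no comparison passed (adjusted p of 0.412 or more). Its 16 probe sets had means of 4.48 to 9.30, 6 of them above background, and their differences between CHIR and control ran from -0.51 to 0.50. Of these, 5 lay above background in all 4 groups, and the lowest adjusted p among them over the 7 comparisons was 0.0661.

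Mmp9 had a gene value of 5.33, 5.31 and 5.41 with CHIR plus forskolin, 6.16, 6.13 and 6.43 with CHIR, 5.41, 5.56 and 5.29 with forskolin, and 5.45, 5.44 and 5.45 in control cells. The 3 CHIR arrays lay above the other 9, but below the background reference. CHIR differed from control by 0.79 (SE 0.0942, adjusted p = 1.74e-05), and adding forskolin to CHIR lowered it by 0.89 (difference -0.89, adjusted p = 1.79e-05). All 14 probe sets were higher with CHIR than in control cells and 8 passed, where 18.7% of all single probe sets did. Of those 8, 6 lay below background in every group. Of the 14, 5 lay above background in at least 1 group, and the 2 of them that passed lay above it in the CHIR group alone. The 2 probe sets above background in all 4 groups differed by 0.63 (adjusted p = 0.05) and 0.25 (adjusted p = 0.361) between CHIR and control, and neither passed. Between CHIR and forskolin the same 2 differed by 0.59 (adjusted p = 0.0487) and 0.10 (adjusted p = 0.726), and the first passed. That first probe set is the brightest of Mmp9. Taken as the gene value, with adjustment over genes, it kept the call of CHIR against control. When the gene value was taken from those 5 alone, a choice made after the data were seen and one that depends on the level with CHIR, the highest group of all 5, Mmp9 differed by 0.54 between CHIR and control (adjusted p = 0.0623), by -0.33 between CHIR plus forskolin and CHIR (adjusted p = 0.334) and by 0.53 between CHIR and forskolin (adjusted p = 0.0578), and none passed.

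**Figure D3:**
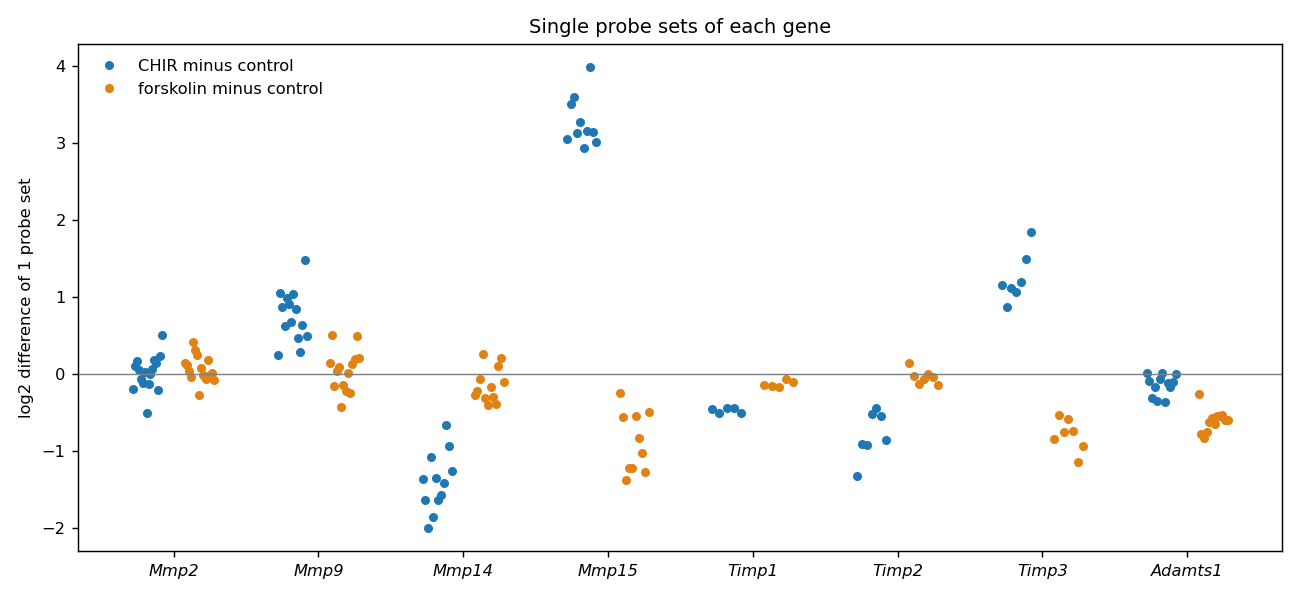
Log2 difference of every single probe set of the 8 genes, one point per probe set, for CHIR minus control and forskolin minus control, in that order from left to right within a gene. The 10 probe sets of Mmp15 lie between 2.93 and 3.99 and the 12 of Mmp14 at -0.66 or below for CHIR against control, while those of Mmp2 lie on both sides of 0.

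Timp3 encodes an inhibitor that binds to the extracellular matrix and also blocks several ADAM and ADAMTS proteases. It had a log2 signal of 12.22, 12.31 and 12.27 with CHIR plus forskolin, 12.84, 12.71 and 12.82 with CHIR, 10.95, 10.84 and 10.88 with forskolin, and 11.71, 11.77 and 11.61 in control cells. The 4 groups did not overlap and stood in the same order as those of Mmp15. CHIR raised Timp3 2.14-fold over control (1.10, SE 0.0753, adjusted p = 6.91e-08), and forskolin lowered it 1.75-fold below control (-0.81, adjusted p = 4.73e-06). Both compounds together left it 1.49-fold above control (0.57, adjusted p = 4.69e-05) and 2.60-fold above forskolin alone (1.38, adjusted p = 9.09e-09). Against forskolin, CHIR was higher by 1.90 (adjusted p = 1.87e-10). All 7 probe sets were above background, all 7 rose with CHIR (0.87 to 1.85) and all 7 fell with forskolin (-1.14 to -0.53).

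Timp2 encodes an inhibitor that also takes part, bound to Mmp14, in the activation of Mmp2. Its log2 signal was 11.98, 11.99 and 11.98 with CHIR plus forskolin, 11.96, 12.08 and 11.90 with CHIR, 12.77, 12.80 and 12.78 with forskolin, and 12.85, 12.80 and 12.88 in control cells. As for Mmp14, the arrays fell into those with CHIR, which were low, and those without it, which were high. CHIR lowered Timp2 1.81-fold below control (-0.86, SE 0.0704, adjusted p = 4.13e-07), and all 7 of its probe sets fell (-1.32 to -0.44). CHIR plus forskolin differed from control by -0.86 (adjusted p = 4.76e-07) and from forskolin by -0.80 (adjusted p = 1.01e-06). Forskolin added to CHIR made a difference of 0.00 (95% interval -0.15 to 0.15, adjusted p = 0.998), and forskolin alone one of -0.06 (-0.21 to 0.09, adjusted p = 0.67).

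Timp1 encodes a secreted inhibitor known to bind the pro-form of Mmp9, and it responded to forskolin where CHIR was present. Its log2 signal was 10.66, 10.84 and 10.83 with CHIR plus forskolin, 10.12, 10.25 and 10.20 with CHIR, 10.70, 10.54 and 10.54 with forskolin, and 10.83, 10.61 and 10.63 in control cells. The 3 CHIR arrays lay below the other 9, which overlapped. CHIR lowered it 1.42-fold below control (-0.50, SE 0.0874, adjusted p = 0.000499), and it was higher with CHIR plus forskolin than with CHIR alone (0.59, SE 0.0874, adjusted p = 0.000353). CHIR plus forskolin differed from control by 0.09 (95% interval -0.10 to 0.28, adjusted p = 0.531). All 5 probe sets fell with CHIR (-0.51 to -0.44) and all 5 were higher with forskolin added to CHIR (0.38 to 0.67).

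Adamts1 had a log2 signal of 8.34, 8.77 and 8.76 with CHIR plus forskolin, 9.01, 8.75 and 8.80 with CHIR, 8.44, 8.39 and 8.30 with forskolin, and 8.88, 9.11 and 8.98 in control cells. The forskolin arrays lay below all control and CHIR arrays, and replicate 1 of CHIR plus forskolin lay among them, apart from the other 2 of its group. Forskolin lowered Adamts1 1.53-fold below control (-0.62, SE 0.116, adjusted p = 0.00226). All 12 probe sets lay below control and 6 of them passed, where 7.35% of all single probe sets did. CHIR differed from control by -0.14 (95% interval -0.39 to 0.11, adjusted p = 0.442). With both compounds the difference from control was -0.37 (adjusted p = 0.0267), but without replicate 1 of CHIR plus forskolin it was -0.23 (adjusted p = 0.12), without Control replicate 2 it was -0.31 (adjusted p = 0.102) and without Control replicate 3 it was -0.38 (adjusted p = 0.0612), and the call was lost each time.

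Adding forskolin to CHIR changed 4 of the 8 genes, where 13.9% of all genes passed. Timp1 was higher, against 6.53% of all genes, and Mmp9, Mmp15 and Timp3 were lower, against 7.39% of all genes. The gene value of Mmp9 lay below background in every group. Its call here was lost with the brightest probe set and with probe sets above background only (-0.33, adjusted p = 0.334). Mmp15 fell by 0.91 (difference -0.91, SE 0.0811, adjusted p = 3.62e-06) and Timp3 by 0.52 (-0.52, adjusted p = 0.000273), with 10 of 10 and 7 of 7 probe sets past the threshold in that direction, where 6.81% of all single probe sets passed. Adding CHIR to forskolin changed 4 of the 8, where 30.1% of all genes passed, with Mmp15 and Timp3 higher (16.4% of all genes) and Mmp14 and Timp2 lower (13.7% of all genes). CHIR alone against forskolin alone differed for 7 of the 8, where 35.3% of all genes did. Mmp9, Mmp15, Timp3 and Adamts1 were higher with CHIR (19.5% of all genes), and Mmp14, Timp1 and Timp2 were lower (15.7% of all genes). With its probe sets above background only, Mmp9 differed there by 0.53 (adjusted p = 0.0578) and did not pass, while with its brightest probe set the call was kept. Adamts1 differed there by 0.47 (adjusted p = 0.0051) and Timp1 by -0.41 (adjusted p = 0.00199).

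Whether forskolin acted differently in the presence of CHIR was tested by the interaction, that is, the log2 difference made by forskolin in CHIR-treated cells minus the one it made in cells that had no CHIR. It passed for 2 of the 8 genes, where 6.33% of all genes passed, namely Timp1 (3.26% of all genes higher) and Mmp9 (3.08% of all genes lower). Forskolin made a difference of 0.59 in Timp1 with CHIR and of -0.10 without it, an interaction of 0.69 (SE 0.124, adjusted p = 0.00367), and 2 of its 5 probe sets passed on their own, where 1.85% of all single probe sets did. In Mmp9 the differences were -0.89 with CHIR and -0.03 without it, an interaction of -0.86 (SE 0.133, adjusted p = 0.00124). For Mmp9 this was lost with the brightest probe set of the gene (-0.45, adjusted p = 0.522) and with its probe sets above background only (-0.35, adjusted p = 0.575). For Mmp15 the forskolin differences were -0.91 with CHIR and -1.08 without it, and the interaction was 0.17 (95% interval -0.08 to 0.41, adjusted p = 0.515). That of Timp3 was 0.28 (0.05 to 0.51, adjusted p = 0.164) and that of Adamts1 0.39 (0.03 to 0.74, adjusted p = 0.225), and neither passed the adjusted threshold. Without replicate 1 of CHIR plus forskolin the interaction of Adamts1 was 0.53 (adjusted p = 0.0349) and passed.

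**Figure D4:**
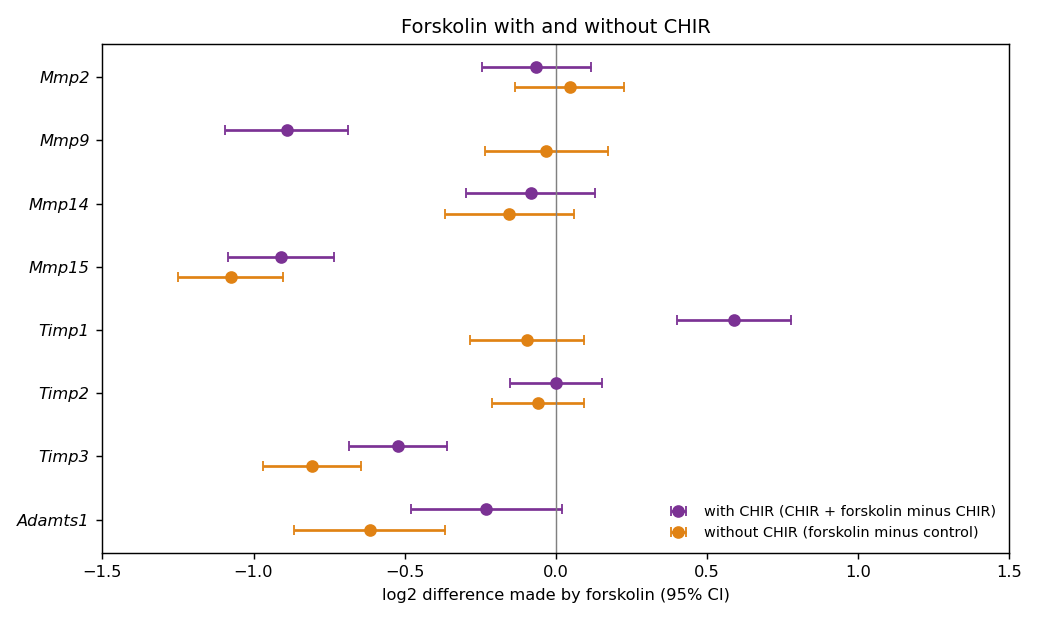
Log2 difference made by forskolin in the presence of CHIR (CHIR plus forskolin minus CHIR) and in its absence (forskolin minus control) for each gene, with 95% confidence intervals. The intervals stand apart for Timp1 (0.59 with CHIR and -0.10 without) and Mmp9 (-0.89 with CHIR and -0.03 without), and overlap for Mmp15 (-0.91 with CHIR and -1.08 without).

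The same gene groups were then followed outside the 8 genes, in lists that were chosen with earlier results of these data known. Of 18 other metalloproteinase genes measured, 4 lay above background. With CHIR, 2 rose and 4 fell against control, where 28.2% of all genes passed in either direction, and the median difference was -0.0050 over the list and 0.013 over all genes. Mmp25, a membrane-anchored enzyme known from leukocytes, followed the direction of Mmp15. It averaged 10.44 ± 0.09 with CHIR plus forskolin, 11.30 ± 0.03 with CHIR, 8.54 ± 0.20 with forskolin and 10.09 ± 0.03 in control cells (SD, n = 3 each), and it rose with CHIR by 1.21 (adjusted p = 2.4e-07), was lower with forskolin (-1.55, adjusted p = 9.3e-08) and was lower when forskolin was added to CHIR (-0.86, adjusted p = 2.28e-05). Mmp11, stromelysin-3, fell with CHIR (-1.76, adjusted p = 7.41e-08) and was higher with forskolin added to CHIR than with CHIR alone (0.75, adjusted p = 0.000721). Mmp23 fell with CHIR (-1.29) and with forskolin (-1.21), to levels below background in both, so these differences may be understated, and Mmp28 fell with CHIR (-0.59, adjusted p = 0.000207). Mmp10 was higher with CHIR (0.21), Mmp1 was lower with CHIR (-0.26, adjusted p = 0.0496, named after its value was seen) and Mmp27 was higher with forskolin (0.33), and all 3 lay below background in every group.

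Of 9 further inhibitors and clearance receptors, 2 rose and 3 fell with CHIR, where 28.2% of all genes passed, with a list median of -0.10 and a median over all genes of 0.013. Reck, a membrane-anchored inhibitor of metalloproteinases, fell (-1.29, adjusted p = 3.21e-06) to 5.51, below background. Lrp1, an endocytic receptor that clears proteases and their inhibitor complexes, also fell (-1.32, adjusted p = 7.11e-06). Its level with CHIR, 9.98, stayed above background. Cst3, cystatin C, which inhibits cysteine proteases, fell by 0.50 (-0.50, adjusted p = 8.38e-05). Timp4 (0.28) and Spock2 (0.32) rose and lay below background in every group. With forskolin alone Lrp1 rose (0.51, adjusted p = 0.0275) and Cst3 fell (-0.31, adjusted p = 0.00955).

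The ADAMTS family, to which Adamts1 belongs, and the ADAMTS-like genes, named Adamtsl, together held 22 other measured genes with 7 above background. With CHIR 1 rose and 5 fell, where 28.2% of all genes passed, and with forskolin 3 rose and 3 fell, where 15.0% did, with list medians of 0.01 for CHIR and 0.02 for forskolin, where the medians over all genes were 0.013 for CHIR and -0.0036 for forskolin. Forskolin raised Adamts2, a procollagen N-proteinase (1.19, adjusted p = 0.00021), Adamts7 (1.04, adjusted p = 6.44e-05) and Adamts9 (0.31, adjusted p = 0.0268), and lowered Adamts3 (-1.79, adjusted p = 5.98e-08), Adamts15 (-1.06, adjusted p = 2.58e-05) and Adamtsl5 (-0.39, adjusted p = 0.0258). CHIR lowered Adamts9 (-1.48), Adamts3 (-1.16) and Adamts15 (-1.14). The gene that was higher with CHIR, Adamts13 (0.28, adjusted p = 0.0201), lay below background in every group. Adamts3 and Adamts15 lay below background in both treated groups, at 6.13 and 5.60 with CHIR and at 5.50 and 5.68 with forskolin, and Adamts2 lay below it in control cells (6.14), so these differences may be understated. Adamts1 was lower with forskolin, as were 3 of these genes, while 3 were higher.

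**Figure D5:**
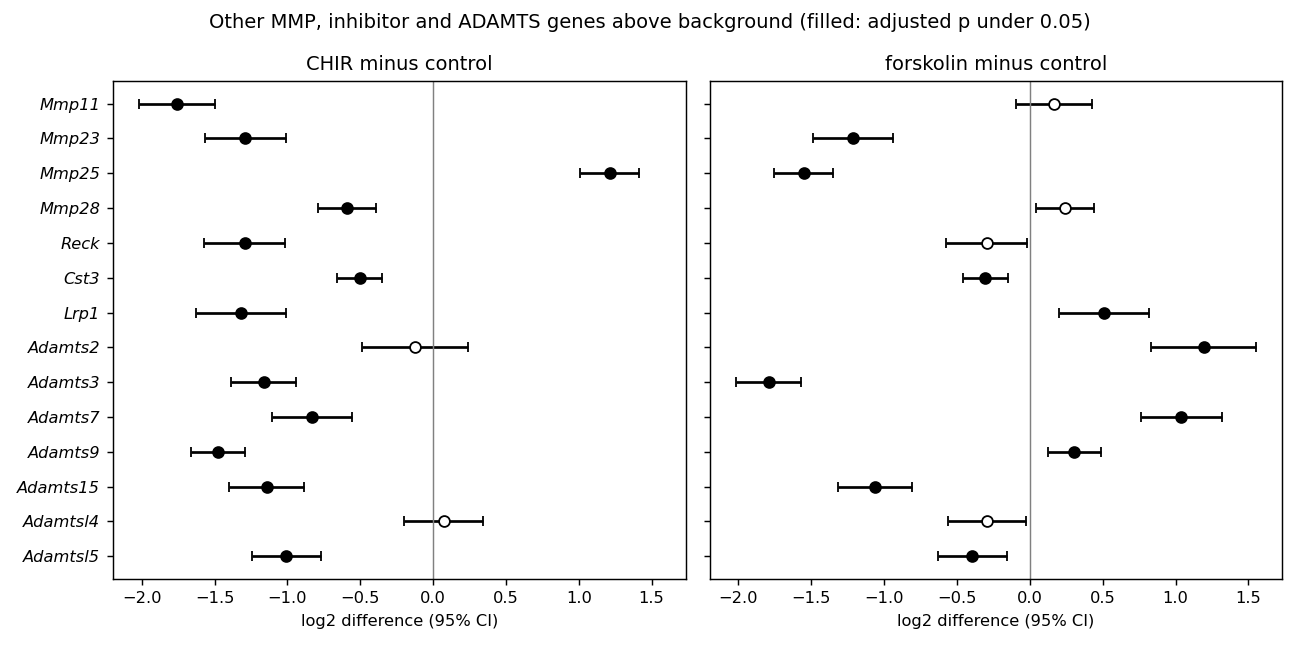
Log2 difference from control, with 95% confidence intervals, of the 14 other metalloproteinase, inhibitor, ADAMTS and ADAMTS-like genes above background. There is a panel for CHIR and a panel for forskolin, and filled points passed an adjusted p under 0.05. Mmp25 stands at 1.21 with CHIR and at -1.55 with forskolin, and Adamts3 at -1.16 with CHIR and at -1.79 with forskolin, where its level lay below background in both treated groups.

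The lists of activators and partners, matrix substrates, AP-1 and ETS factors and ADAM genes are given beside the share of all genes that passed, 28.2% for CHIR and 15.0% for forskolin, and nothing particular to a list is read from its count. Of 12 activators and partners 4 rose and 3 fell with CHIR. Furin, the protease that removes the pro-domain of membrane-type metalloproteinases, rose by 0.75 (adjusted p = 7.61e-06), while Plat, the tissue plasminogen activator (-2.35, adjusted p = 1.81e-09), and Cav1, a component of caveolae (-2.72, adjusted p = 8.16e-10), fell. Forskolin raised Plau, urokinase, by 1.52 (adjusted p = 1.59e-07), against a control level of 6.32 that lay below background, so the difference may be understated. Of 15 matrix substrates 1 rose and 10 fell with CHIR, with a list median of -0.40, and Nid1, nidogen of the basement membrane, fell furthest (-2.04, adjusted p = 2.94e-10). Acan averaged 5.97 with CHIR and 5.57 in control cells, and lay below background in every group. With forskolin 1 rose, fibronectin (Fn1, 0.71, adjusted p = 5.77e-05), and 2 fell, with a list median of 0.06. Of 11 measured AP-1 and ETS factors, which are known regulators of metalloproteinase genes, 3 rose and 5 fell with CHIR, and 2 rose and 3 fell with forskolin. Ets2 had the signs of Mmp15 and Timp3 for CHIR against control (0.55, adjusted p = 0.00504) and for forskolin against control (-0.67, adjusted p = 0.00292). The same held for CHIR plus forskolin against CHIR (-0.49, adjusted p = 0.0223). With both compounds, however, Ets2 averaged 8.82 against 8.75 in control cells, while Mmp15 and Timp3 were higher than control by 2.27 and 0.57. This pattern of Ets2 was picked out after its values were seen. Of 10 ADAM genes 3 rose and 3 fell with CHIR, with Adam8 at -2.23 (adjusted p = 4.36e-08).

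Across the 12 arrays, which fall into 4 groups, the members went together in 2 pairs. Mmp14 and Timp2 had a Pearson correlation of 0.987, and Mmp15 and Timp3 one of 0.972. Mmp15 ran against Timp2 (-0.936) and Mmp14 (-0.915), and Mmp9, whose gene value lay below background on all 12 arrays, against Timp1 (-0.887). These values describe 12 arrays that share their group and their normalisation, and they carry no test. Among all other genes, those most like Mmp15 were H19 (0.996) and Prc1 (0.995), those most like Timp3 were Klhl13 (0.993) and Atp1b1 (0.992), and those most like Mmp14 were Tmem44 (0.990) and Cspg5 (0.989). Timp2 was closest to Tril (0.997) and again Tmem44 (0.997), Timp1 to Gstk1 (0.939) and Cotl1 (0.938), Adamts1 to Folr1 (0.955) and Nr6a1 (0.949), and Mmp9 to Parp12 (0.963) and Anks6 (0.962). For Mmp2 the closest were the olfactory receptor genes Or6f1 (0.910) and Or5b124 (0.863), whose levels lay below the background reference as its own did.

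The 3 genes that forskolin lowered are shown by the 250 bases before their start, as RefSeq gives them on GRCr8, since forskolin acts through cAMP and the cAMP response element (CRE) is a known promoter motif. The windows run 5′ to 3′ on the minus strand, at chr19:9691001-9691250 for Mmp15, chr7:19459559-19459808 for Timp3 and chr11:38427385-38427634 for Adamts1. Capitals mark the core of the CRE, TGACG.
Mmp15: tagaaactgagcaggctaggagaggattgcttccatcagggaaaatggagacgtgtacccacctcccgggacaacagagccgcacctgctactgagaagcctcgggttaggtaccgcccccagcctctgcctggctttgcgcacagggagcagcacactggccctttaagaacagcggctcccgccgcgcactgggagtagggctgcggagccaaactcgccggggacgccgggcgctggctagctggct
Timp3: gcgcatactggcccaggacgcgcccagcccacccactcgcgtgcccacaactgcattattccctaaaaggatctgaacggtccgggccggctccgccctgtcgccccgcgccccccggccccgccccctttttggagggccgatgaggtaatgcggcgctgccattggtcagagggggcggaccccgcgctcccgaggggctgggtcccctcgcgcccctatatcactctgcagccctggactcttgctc
Adamts1: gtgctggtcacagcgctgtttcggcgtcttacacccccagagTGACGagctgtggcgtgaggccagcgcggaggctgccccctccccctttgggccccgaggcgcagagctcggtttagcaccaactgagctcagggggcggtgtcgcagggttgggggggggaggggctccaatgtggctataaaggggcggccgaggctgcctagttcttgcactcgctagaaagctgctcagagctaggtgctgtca
Promoters were searched for 5 of the 8 genes, these 3 and Timp1 and Timp2, over 300 bases that reach 50 past the start, on both strands, for the full CRE TGACGTCA, its core TGACG, the AP-1 motif TGANTCA and the TCF/LEF motifs CTTTGAT and CTTTGAA. The core lies within the full CRE, so a full match would count for both. Mmp15 and Timp3, which forskolin lowered and CHIR raised, held none of these letters in the window. Adamts1 held the core once, at positions -208 to -204 from its start, Timp1 once at -215 to -211, and Timp2 once on the opposite strand at -179 to -175. Of all 33469 promoters of this length, 21.2% held the core, 1.83% the full CRE, 7.33% the AP-1 motif, and 3.63% and 5.4% the 2 TCF/LEF motifs. A match is a description of the letters and not a binding site, and a window without one says nothing about the factor.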

How the data were processed

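RNA of 12 samples in 4 groups of 3 was hybridised to Affymetrix whole-transcript arrays. The deposited values are log2 signals, 1 per probe set and array, which the authors summarised and normalised with RMA in Partek, per the submitters' processing notes. Versions and options were not given in the sources used here, and the log base was taken from the values. RMA can compress dim signals, so differences near background may be understated, which was not tested here. The number of arrays, 3 per group, limits the precision.

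Of 211195 probe sets, the 2010 platform annotation assigned 1 symbol to 172924. Those with several (1661) or none (36610) were not used. Of 16582 symbols, 12865 were current, 3662 were updated through RefSeq gene names of GRCr8 and 55 were kept. A gene's value is the median of its probe sets, whose number ran from 5 to 16 for the 8 genes. The model had a mean for each of the 4 groups, used every array, and was fitted in limma 3.58.1 with eBayes (R 4.3.3, data.table in version 1.17.8). Tests are two-sided, with Benjamini-Hochberg adjustment over all 16582 genes (or all 172924 probe sets) of each of 7 comparisons and a threshold of 0.05. Differences are the group named first minus the other. The procedure was tested on simulated data with independent noise of the observed spread, in which only CHIR effects were planted. That test does not show how forskolin or interaction effects are recovered, nor whether the parallels are separate cultures.

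The members, gene lists and alternatives were chosen with earlier results of these data known, and the olfactory background reference after the data were seen. Genes named are the 8 members and, per list and comparison described, up to 3 higher and 3 lower genes past the threshold with the largest differences. Likeness names the 2 closest genes of each member by Pearson correlation. Alternatives were the mean or brightest probe set, centred arrays, brighter genes only, an intensity trend, 2 groups only, a replicate block, each array left out, and probe sets above background only. A planned motif search in protein sequences was not run, as no protein sequences were used here.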

Additional observations from a re-analysis of the deposited data

Results flagged for a closer look

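The gene value of Mmp9 gave a different effect of forskolin in cells with CHIR and in cells without it. The test of that difference, the limma interaction, gave -0.86 (SE 0.133, adjusted p = 0.00124), with CHIR plus forskolin below CHIR on 3 of 3 arrays, and the gene value, a median over 14 probe sets, lay below the background reference in every group, with 2 probe sets above it in all 4 groups. The call was lost with the brightest probe set (-0.45, adjusted p = 0.522) and with probe sets above background only (-0.35, adjusted p = 0.575).

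The effect of forskolin on Timp1 also differed between cells with CHIR and cells without it. Here the interaction was 0.69 (SE 0.124, adjusted p = 0.00367), with all 3 arrays of CHIR plus forskolin above the 3 of CHIR, while the forskolin and control arrays overlapped.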

How the results depend on the processing

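The 31 differences of the 8 genes that passed were recomputed under each alternative that applied, which gave 614 values. Of these values, 603 kept their direction and call and 11 kept the direction and lost the call. Those 11 belong to Mmp9 (6) and Adamts1 in CHIR plus forskolin against control (5). Besides the values in the report, they are Mmp9 in CHIR plus forskolin against CHIR with the brightest probe set (-0.41, adjusted p = 0.242), and Adamts1 with the 2 groups only (-0.37, adjusted p = 0.0574) and with probe sets above background only (-0.38, adjusted p = 0.0581). Of 484 alternatives to the 25 differences that did not pass, 4 passed: the 1 given for the interaction of Adamts1, Timp1 in CHIR plus forskolin against forskolin with the mean of the probe sets (0.18, adjusted p = 0.0307), and Adamts1 there with the mean (0.26, adjusted p = 0.0288) and without CHIR_Forskolin replicate 1 (0.39, adjusted p = 0.011).

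Counts moved by over 1.5 times in the interaction alone. Over all genes 1050 passed, against 1870 with the mean of the probe sets and 631 with the brightest, and of the 8 genes 2 passed, against 1 each with the brightest probe set, with bright genes only (which leaves Mmp9 out) and with probe sets above background only. Leaving out 1 array gave 841 to 1006 genes and 2 to 3 of the 8 in the interaction. With arrays centred on their median, 1201 genes were higher and 1166 lower with forskolin, against 1009 and 1485 as deposited. With the replicate number as a replicate block, 978 genes passed in the interaction, no call of the 8 genes was lost or gained, and the block changed no other count by over 1.5 times. Deviations of same-numbered arrays correlated at -0.196 to 0.156 over 18 pairs, 1 of them over 0.1, so the numbers were not taken as pairing.

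Only differences that did not pass changed sign, in 30 alternatives, and none of those passed either. With the brightest probe set these were Mmp2 in CHIR against control (-0.208), forskolin against control (-0.018), CHIR plus forskolin against CHIR (0.0323) and the interaction (0.0504), Mmp9 in forskolin against control (0.0359), CHIR plus forskolin against control (0.219) and against forskolin (0.184), Timp1 in CHIR plus forskolin against control (-0.0699), and Mmp14 (0.0869) and Timp2 (-0.00297) in CHIR plus forskolin against CHIR. With the mean they were Mmp9 in forskolin against control (0.0448), CHIR plus forskolin against control (0.0639) and against forskolin (0.019), and the interaction of Mmp15 (-0.172). With centred arrays Mmp9 in forskolin against control was 0.00791. With probe sets above background only they were Mmp9 in the same 3 comparisons (0.0149, 0.212 and 0.198) and Mmp2 in CHIR plus forskolin against control (0.288), against forskolin (0.238) and in CHIR against forskolin (0.257). Leaving out 1 array gave -0.0756 to 0.0615 for Mmp2 in CHIR against control, -0.12 to 0.0172 for Mmp2 in CHIR plus forskolin against CHIR, -0.121 to 0.0162 for Mmp2 in CHIR against forskolin, -0.101 to 0.0336 for Mmp9 in forskolin against control, -0.134 to 0.000485 for Mmp9 in CHIR plus forskolin against forskolin and -0.0384 to 0.0499 for Timp2 in CHIR plus forskolin against CHIR. The cause of these changes was not tested. Signal over background limits Mmp9 and most probe sets of Mmp2, whose gene values lay below the background reference on all arrays, and 3 arrays per group limit the precision throughout.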
